A study of Mus musculus with 24 samples.

Results

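The question addressed here is whether the bacterium LGG and an antibody against the checkpoint receptor PD-1, given together, changed transcripts of lymph node dendritic cells by more or less than their separate effects add up to. The design answers it with a 2 by 2 factorial of the 12 wild-type libraries, out of 24 in the series, with 3 libraries in each of 4 groups. All mice were female C57BL/6, were 6 to 8 weeks old and carried MC38 colon carcinoma cells, 1000000 of which had been placed under the skin. Treatment started after 7 to 10 days, at a tumour size of 100 mm3, and went on for 2 to 3 weeks. The groups received control IgG, anti-PD-1, LGG (Lactobacillus rhamnosus GG, live and by mouth) or anti-PD-1 with LGG, called the combination below. Dosing was 2 times a week with 200 ug of antibody per mouse. For the group with LGG alone the labels record no antibody, so that LGG against IgG also differs in the IgG recorded. Likewise, the combination against LGG sets anti-PD-1 against no recorded antibody, while anti-PD-1 against IgG sets it against control IgG. An effect of the control IgG therefore cannot be told apart from the departures from additivity described below. Cells were drawn from mesenteric lymph nodes with beads that bind CD11c. Neither the number of mice behind a library nor separate animals for the replicates are stated, so p-values measure the spread between these libraries, which may be technical.

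PD-1 is a receptor on activated T cells that dampens their signalling when it meets its ligands PD-L1 (Cd274) and PD-L2 (Pdcd1lg2), which dendritic cells and macrophages carry. Antibodies that block it release T cells from that brake. Bacteria in the gut are sensed by dendritic cells and macrophages through Toll-like receptors and cytosolic nucleic acid sensors, which lead to NF-kB target genes such as Il6 and Tnf and to type I interferon. Interferon in turn raises a set of antiviral genes, among them Rsad2, Oas3 and the Ifit genes, through interferon-response elements in their promoters.

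On the log2 scale used here, effects that add up are effects whose folds multiply. The term reported for each gene is the combination minus LGG, minus the difference of anti-PD-1 and IgG. A term above 0 means that the combination was higher than the product of the single effects gives, and a term below 0 that it was lower. Errors after a term or another log2 difference are standard errors of the linear model (limma), adjusted p-values are Benjamini and Hochberg's over all 12660 genes tested, and values per library are normalised counts. Genes with an adjusted p below 0.05 were called.

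Some properties of the libraries touch the results. Reads in listed genes ranged from 24531528 to 33336776. The leading principal component (89.1% of variance) separated the 6 libraries with LGG from the 6 without. LGG replicate 3 stood apart from LGG replicates 1 and 2 on the second component, at -5.22 against 20.8 and 18.9, beside the combination libraries at -17.9 to -2.82. The standard deviation of its deviations from the group mean was 0.155, and in the other 11 libraries it was 0.0794 to 0.114. As for the labelled cell type, Itgax, which encodes CD11c, lay at 9637 to 25430 in wild type. Flt3, the growth factor receptor of conventional dendritic cells, lay at 85.2 to 676 and the cDC1 marker Xcr1 at 10.5 to 210, while Csf1r, the receptor for a macrophage growth factor, lay at 3590 to 19580. Markers of other cells were present, with Cd3e of T cells at 558 to 997 and Cd79a of B cells at 30.2 to 138. Cd209a of cDC2 and Siglech of plasmacytoid cells were not analysed here.

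The term was called in 428 genes, which is 3.38% of those tested, 219 above 0 (1.73%) and 209 below 0 (1.65%). Most departures were modest. The median size of the term was 0.40 over the called genes and 0.15 over all genes, 126 called terms exceeded 0.5 and 20 exceeded 1. The largest called term was 2.95 and the lowest -1.68. The number rests on which libraries are in the fit: it was 106 without LGG replicate 2, 1580 without LGG replicate 3 and 2215 without both LGG replicate 3 and combination replicate 1. When the knockout libraries shared the estimate of spread, 2 genes remained called, Nos2 at 0.78 ± 0.12 and Naaa at -0.44 ± 0.07 (adjusted p = 0.0299 for each, limma over 24 libraries). By contrast, 88 genes, 52 above 0 and 36 below, were called with all 12 libraries and also each time 1 library was left out.

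The 2 antibody contrasts behind the term share no library. Anti-PD-1 against IgG, without LGG, was called in 1133 genes (8.95%), 520 higher (4.11%) and 613 lower (4.84%). The combination against LGG was called in 1308 genes (10.3%), 640 higher (5.06%) and 668 lower (5.28%). Both counts rest on single libraries. The combination against LGG gave 93, 69 of them higher and 24 lower, without LGG replicate 2, 124 without LGG replicate 1, 103 and 139 without combination replicates 2 and 3, 2080 without combination replicate 1 and 3837 without LGG replicate 3. Under TMM scaling 810 were higher and 484 lower. Anti-PD-1 against IgG gave 338 to 366 without IgG replicate 1 or 3 or anti-PD-1 replicate 2 or 3, with 24.3% to 36% of them higher, and 1840 without LGG replicate 3. In the fit of 24 libraries the counts were 8 and 4. Of the 219 genes with a called term above 0, 175 were lower with the antibody where LGG was absent and higher with it where LGG was present, 26 were lower in both settings and 18 higher in both. Of the 209 genes below 0, 199 were higher with the antibody without LGG and lower with it under LGG. The median antibody difference of the 219 genes was -0.30 without LGG and 0.19 with it, and of the 209 genes 0.18 and -0.17. Choosing genes by the term favours such opposed signs, so these counts are a description. Read as LGG effects, 121 of the 219 genes were higher with LGG in both antibody settings and 110 of the 209 were lower with LGG in both. Their LGG differences are larger with anti-PD-1 by the construction of the term.

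**Figure D1:**
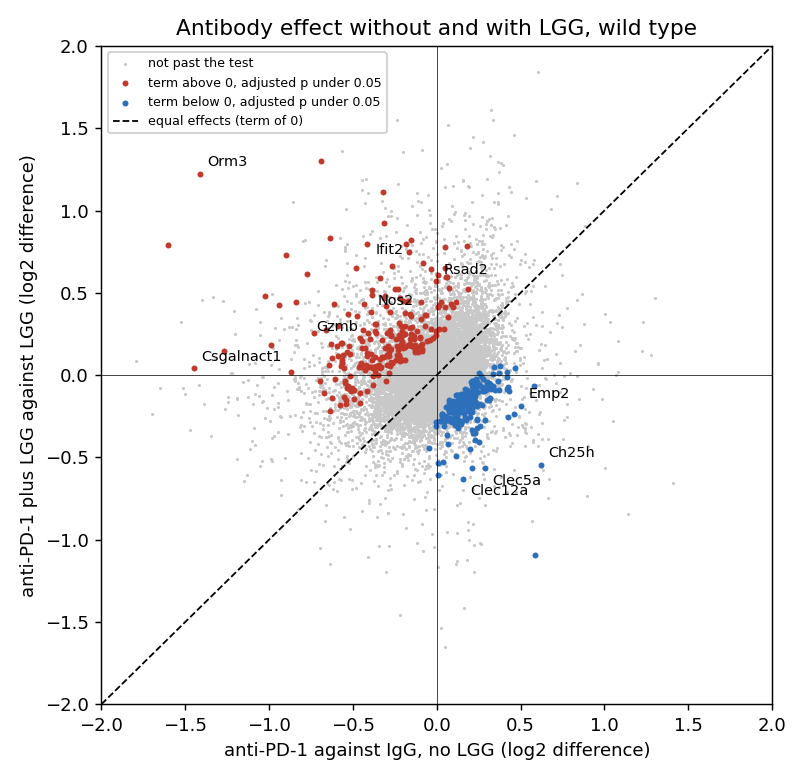
Each point is a gene: the horizontal axis gives anti-PD-1 against IgG without LGG and the vertical axis the combination against LGG, both as log2 differences, and the dashed line marks equal effects (3 genes, 1 of them called, lie outside the drawn range). The 219 genes with a called term above 0 (red) lie above the line, 175 of them in the upper left, where the antibody differences oppose each other, and the 209 below 0 (blue) lie below it.

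Interferon-induced antiviral genes were the response group with the most called members. Of 37 tested genes of the type I interferon response, 9 had a term above 0 that passed the test and none had one below 0. The 9 were Ifit2, Rsad2, Oas3, Isg20, Oas2, Ifit3, Cmpk2, Mx1 and Irf7. The list's median term was 0.19 beside 0.00050 for all genes. Its median antibody difference was -0.04 without LGG and 0.15 with it. Here 13 of the 37 were called higher in the combination than under LGG and 2 lower, while under anti-PD-1 against IgG 0 were called higher and 3 lower. The summed level of the list ranged from 48540 to 50190 in IgG, from 46850 to 47970 under anti-PD-1, from 182000 to 194000 under LGG and from 208300 to 212500 in the combination.

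Of the 7 called members with a promoter window, the 3 that hold an interferon-response core are shown, to let its letters be seen; the other 4 were called in the same direction and do not hold it. Each window runs from 250 bases before to 50 after the start of the gene (RefSeq, GRCm38.p6, gene strand), and capitals mark matches to the interferon-response core GAAANNGAA on either strand.
Ifit3, chr19:34583279-34583578, plus strand: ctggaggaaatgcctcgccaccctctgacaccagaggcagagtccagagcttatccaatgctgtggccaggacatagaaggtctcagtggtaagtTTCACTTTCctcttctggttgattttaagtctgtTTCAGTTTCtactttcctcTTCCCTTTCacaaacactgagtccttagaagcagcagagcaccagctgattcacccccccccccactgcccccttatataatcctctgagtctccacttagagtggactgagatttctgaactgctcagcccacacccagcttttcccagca
Oas3, chr5:120777610-120777909, minus strand: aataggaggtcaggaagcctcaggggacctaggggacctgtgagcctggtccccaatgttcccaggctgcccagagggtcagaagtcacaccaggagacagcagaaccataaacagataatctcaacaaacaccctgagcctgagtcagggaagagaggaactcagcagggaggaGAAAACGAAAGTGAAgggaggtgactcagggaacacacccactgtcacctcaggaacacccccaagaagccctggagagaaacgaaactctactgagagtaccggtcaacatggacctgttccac
Rsad2, chr12:26456403-26456702, minus strand: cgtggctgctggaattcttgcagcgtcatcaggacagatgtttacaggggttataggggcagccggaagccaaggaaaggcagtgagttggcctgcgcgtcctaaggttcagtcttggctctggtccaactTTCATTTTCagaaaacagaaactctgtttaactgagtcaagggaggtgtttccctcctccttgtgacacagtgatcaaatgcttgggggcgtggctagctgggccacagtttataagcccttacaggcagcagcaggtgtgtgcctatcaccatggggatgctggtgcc
The Ifit3 window holds 3 matches, that of Oas3 holds 2 that overlap, 75 and 69 bases before the start, and that of Rsad2 holds 1, 119 bases before it. Of the interferon list, 29 genes had a window and 17 (58.6%) held the core, beside 9% of the 9990 tested genes with a window. It was present in 3 of 7 called members and in 14 of 22 that were not called. Among all genes with a called term, 15.5% of 161 windows above 0 and 7.5% of 160 below 0 held it. A match is a run of letters and not a measured binding site.

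Rsad2, which encodes the antiviral enzyme viperin (chromosome 12, 26442746 to 26456452), lay at 544, 594 and 593 in IgG, at 552, 549.6 and 627 under anti-PD-1, at 8780.1, 8674.5 and 8976 under LGG and at 12960, 12870 and 13440 in the combination. The IgG and anti-PD-1 libraries overlap, and every combination library is above every LGG library. The antibody difference was 0.00 without LGG and 0.57 with it, and the term was 0.57 ± 0.08 (adjusted p = 0.0026). Rsad2 was 15.3-fold higher in LGG than in IgG and 22.7-fold higher in the combination than under anti-PD-1.

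Ifit2, an interferon-induced protein that hinders viral translation (chromosome 19, 34550694 to 34576419), gave the largest term of the list, 0.77 ± 0.10 (adjusted p = 0.0022). Its libraries read 873, 884 and 798 in IgG, 739, 798 and 875 under anti-PD-1, 2288, 2289.7 and 2609 under LGG and 3582, 3904 and 4054 in the combination. The combination libraries again lie above all others, while IgG and anti-PD-1 overlap. Oas3, an oligoadenylate synthetase that senses double-stranded RNA, followed the same order with 5736, 5752.5 and 6800.4 under LGG and 7812, 8294 and 8736 in the combination (term 0.54 ± 0.10, adjusted p = 0.0135). All 3 genes kept their call in each of the 12 fits that left a library out. Irf7, the transcription factor that amplifies interferon production, was called (0.42 ± 0.10, adjusted p = 0.037) but kept the call in 2 of those 12 fits, with the highest adjusted p, 0.0891, without IgG replicate 3. Over the list, the number called above 0 ranged from 3, without LGG replicate 1, to 10, without LGG replicate 3.

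Other interferon genes did not pass the test. Isg15, a ubiquitin-like interferon product, had a term of 0.03 with a 95% interval from -0.19 to 0.25, and Cxcl10, a chemokine that draws T cells, had -0.03 (-0.44 to 0.37). Ifnb1, interferon beta itself, was counted at 0 to 2.26 without LGG, at 54.5 to 75.1 under LGG and at 35.7 to 50.5 in the combination, and its interval of -0.93 to 1.5 leaves the term unresolved at this depth. From the interferon-gamma list, 2 of 22 were called above 0 and none below: the guanylate-binding protein gene Gbp5 (0.37 ± 0.06, adjusted p = 0.0068) and the immunity-related GTPase gene Iigp1 (0.44 ± 0.08, adjusted p = 0.00917), both called in all 12 fits with a library left out. Gbp5 stood at 1234, 1250 and 1244 in IgG, at 1092, 1071 and 1073 under anti-PD-1, at 11490, 11550 and 11940 under LGG and at 12470, 13190 and 13600 in the combination, so that the antibody lowered it without LGG and raised it with LGG. Iigp1 belongs to a family of similar genes, between which reads may be split.

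Among the inflammatory genes, Nos2 had the clearest departure. Nos2 encodes the inducible nitric oxide synthase of activated myeloid cells (chromosome 11, 78920787 to 78960254). It was counted at 244, 228 and 202 in IgG, at 177, 169 and 165 under anti-PD-1, at 31280, 30560 and 30020 under LGG and at 39240, 40580 and 39940 in the combination. None of the 4 groups overlap. Anti-PD-1 lowered it where LGG was absent (-0.39, adjusted p = 0.00138) and raised it where LGG was given (0.38, adjusted p = 0.00331), and the term was 0.78 ± 0.08 (adjusted p = 0.000458). With LGG, Nos2 was 136-fold higher without the antibody and 233-fold higher with it.

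Cytokine genes did not share that pattern. Of 30 inflammatory genes, 1 was called above 0 (Nos2) and 2 below, Ptx3 and Il6. Ptx3, which encodes the soluble pattern recognition protein pentraxin 3, lay at 79.7 ± 9.2 in IgG, 107 ± 7.4 under anti-PD-1, 2858 ± 160 under LGG and 2397 ± 26.8 in the combination (SD, n = 3). Its 3 combination libraries, 2372, 2425 and 2396, all lie under the 3 LGG libraries, 2828, 3031 and 2715, while without LGG the anti-PD-1 libraries (102 to 115) lie above those of IgG (71.2 to 89.4). The term of Ptx3 was -0.68 ± 0.12 (adjusted p = 0.0105). Il6 was called at -0.24 ± 0.06 (adjusted p = 0.0419), a call that survived in 1 of 12 fits with a library left out and was lost with edgeR (adjusted p = 0.057). Tnf missed the threshold at -0.40 ± 0.11 (adjusted p = 0.0542). It was at 66264, 65030.0 and 59567 under LGG and at 55927, 49484 and 50595 in the combination, without overlap, and at 585 to 680 in IgG and 624 to 768 under anti-PD-1, which overlap. It was called without LGG replicate 3 (-0.45, adjusted p = 0.014), without combination replicate 1 (-0.46, adjusted p = 0.0469) and without anti-PD-1 replicate 2 (-0.47, adjusted p = 0.0491).

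A set of cytokine, sensor and checkpoint genes held 24 tested genes, and 21 of them did not pass. Beside Nos2, Irf7 and Il6, which passed, Il1b had 0.32 (95% interval 0.09 to 0.55, adjusted p = 0.117), Il12b 0.27 (-0.12 to 0.67), Il12a -0.55 (-1.42 to 0.33) and Il10 -0.07 (-0.49 to 0.35). Among genes of T cell stimulation, the ligands were Cd86 at -0.04 (-0.19 to 0.10) and Cd80 at 0.15 (-0.05 to 0.35). The activating receptor gene Cd40 had 0.16 (-0.15 to 0.47), an interval that holds terms as large as the median called size. Both ligands of PD-1 also missed the threshold. Cd274 had a term of 0.06 (-0.11 to 0.23), with antibody differences of 0.16 without LGG and 0.22 with it, and Pdcd1lg2 had -0.13 (-0.27 to 0.02). Of 16 costimulation and checkpoint genes tested, Lgals9, which encodes galectin-9, was the single call (0.34 ± 0.07, adjusted p = 0.0275), and it was kept in 5 of 12 fits with a library left out. The sensors and adaptors Tlr2 (-0.05), Tlr9 (0.34), Cgas (-0.18), Tmem173, which encodes STING (-0.05), and Myd88 (-0.21) did not pass, with adjusted p from 0.216 to 0.775. Among 26 Toll-like receptor pathway genes 0 were called in either direction, and among 20 of MHC class I and 16 of MHC class II presentation 0 were called as well.

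**Figure D2:**
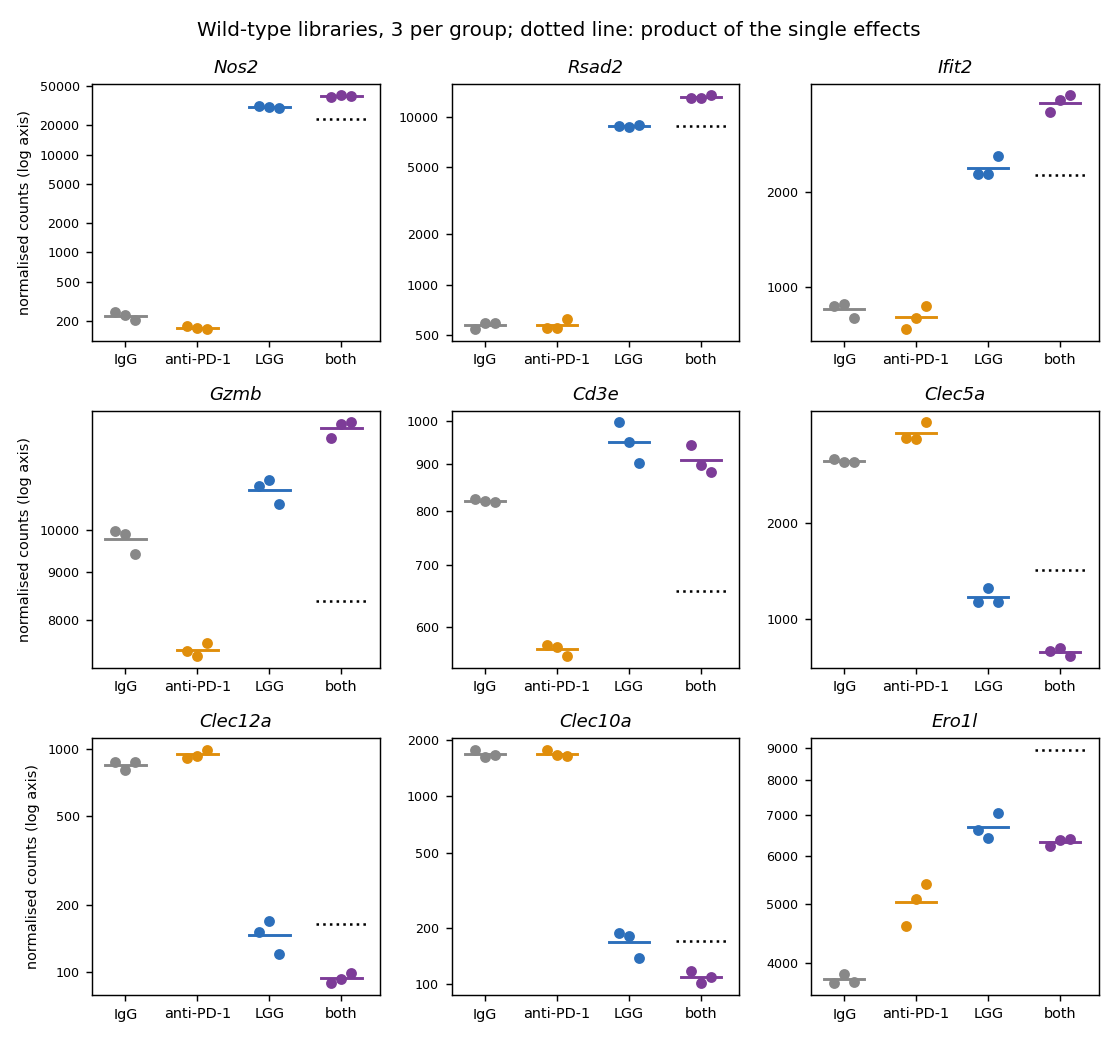
Normalised counts (log axis, scaled for each gene) in each of the 12 wild-type libraries, with a bar at each group's mean and a dotted line at the level that the product of the single effects gives for the combination. In Nos2, Rsad2, Ifit2, Gzmb and Cd3e all 3 combination libraries lie above the dotted line, and in Clec5a, Clec12a, Clec10a and Ero1l all 3 lie below it.

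Clec5a had the joint smallest adjusted p of all genes. It encodes an activating lectin receptor of monocytes and macrophages (chromosome 6, 40574894 to 40585821). Its libraries read 3182, 3125 and 3122 in IgG, 3704, 3667 and 4145 under anti-PD-1, 1131, 1253 and 1131 under LGG and 794, 810.2 and 767 in the combination. No groups overlap: the antibody libraries are the higher ones without LGG and the lower ones with it. The term was -0.85 ± 0.08 (adjusted p = 0.000258). Naaa, a lipid hydrolase abundant in cDC1, moved in the same way. It was at 12360 ± 94.9 in IgG, 13670 ± 127 under anti-PD-1, 1753 ± 74 under LGG and 1424 ± 23 in the combination (SD, n = 3). Its term was -0.44 ± 0.06 (adjusted p = 0.00218). The other cDC1 markers did not share this as a set. Naaa was the single call among 11 tested, of which 7 had a term above 0, and the list median was 0.29.

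Ccr2, the chemokine receptor of inflammatory monocytes, was called below 0 (-0.46 ± 0.12, adjusted p = 0.0419). Other genes of the macrophage and monocyte list went the other way. Adgre1, which encodes the macrophage marker F4/80, lay at 4250, 4178 and 4284 in IgG, 4053, 4311 and 4409 under anti-PD-1, 4220, 4274 and 4603 under LGG and 5513, 5933 and 5977 in the combination. Its first 3 groups overlap and the combination stands above them, with a term of 0.41 ± 0.07 (adjusted p = 0.00917). C1qb and C1qc, subunits of the complement protein C1q, were called above 0 (0.47 ± 0.12 and 0.40 ± 0.10, adjusted p = 0.0416 and 0.0396). In all, 3 of 19 macrophage and monocyte markers were called above 0, 2 below and 14 did not pass, with a median of 0.20.

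Lectin receptor genes of the cDC2 list were below 0. Of 8 tested members, 3 were called below 0 and none above, with a list median of -0.28, and the count ranged from 1 to 4 with a library left out. Clec12a, an inhibitory lectin receptor, went from 877, 807 and 877 in IgG and 916, 936 and 997 under anti-PD-1 to 152, 169.65 and 120.3 under LGG and 89.3, 93.3 and 98.7 in the combination (term -0.79 ± 0.15, adjusted p = 0.015). Clec10a and Mgl2, galactose-binding lectins that macrophages carry as well, had terms of -0.62 ± 0.15 and -0.31 ± 0.07 (adjusted p = 0.0353 and 0.0301). Their calls held in 2 of 12 fits with a library left out each, and were lost without LGG replicate 2 (adjusted p = 0.0926 and 0.0853). Clec12a kept its call in all 12. The cDC2 sum ranged from 76130 to 84180 in the 6 libraries without LGG and from 26220 to 28270 in the 6 with it.

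Dcstamp, Ccdc80, Ch25h and Ear2 were named by their p or size and are on no list, and Fscn1 is on that of migratory dendritic cells. Dcstamp, needed for the fusion of macrophages and of osteoclasts, lay at 2278 ± 72.7 in IgG, 2386 ± 59.0 under anti-PD-1, 3918 ± 226 under LGG and 2930.0 ± 65.8 in the combination (SD, n = 3), with the antibody lowering it where LGG was given (term -0.49 ± 0.07, adjusted p = 0.00364). Ccdc80, an extracellular matrix protein gene, had -0.66 ± 0.13 (adjusted p = 0.0144). Ch25h, which makes 25-hydroxycholesterol, had -1.17 ± 0.24 (adjusted p = 0.0222), with 127 to 136 in IgG, 169 to 226 under anti-PD-1, 37.6 to 55.5 under LGG and 29.4 to 35.1 in the combination; 5 of 12 fits with a library left out kept its call. Ear2, an eosinophil-associated ribonuclease whose near copies could share reads, went against these with 0.72 ± 0.08 (adjusted p = 0.000655). It was at 7870, 7219 and 7541 in IgG, at 6200, 5703 and 6489 under anti-PD-1, at 602, 594 and 567.5 under LGG and at 812, 746 and 799 in the combination. Fscn1, the actin-bundling protein of mature dendritic cells, was lowered by the antibody in both settings, by -0.64 without LGG and -0.22 with it, and its term of 0.42 ± 0.08 (adjusted p = 0.0179) turns to a negative departure when counts themselves are added (-10040 normalised counts). Its call was lost without IgG replicate 3, anti-PD-1 replicate 2 or LGG replicate 2 (adjusted p = 0.0528 to 0.0577).

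Lymphocyte transcripts in these bead-purified samples carried some of the strongest positive terms. All 23 T cell markers tested had a term above 0, 8 passed the test (Cd3e, Cd3g, Cd8a, Cd27, Cd28, Lck, Lat and Thy1), none passed below 0, and the median was 0.42. The antibody difference had a median of -0.49 without LGG and -0.04 with it. Without LGG, 17 of the 23 were called lower with anti-PD-1 and 0 higher. With LGG, 1 was called higher and 0 lower. The count of 8 was 11 without LGG replicate 3 and 3 to 7 with each of the other libraries left out, lowest without IgG replicate 1 or 3 or anti-PD-1 replicate 2. In a bulk sample, fewer cells of a type and less RNA per cell cannot be told apart.

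Cd3e, a subunit of the T cell receptor complex (chromosome 9, 44998740 to 45009627), shows this most plainly. It was counted at 825, 820.3 and 818 in IgG and at 574, 570.5 and 558 under anti-PD-1, against 997, 950.0 and 902 under LGG and 943, 896 and 882 in the combination. The antibody libraries stand below IgG without LGG and overlap the LGG libraries when LGG was given. The term was 0.47 ± 0.08 (adjusted p = 0.01). Cd8a, the coreceptor of cytotoxic T cells that some dendritic cells also carry, had 0.45 ± 0.06 (adjusted p = 0.00139), with 6217 to 6509 in IgG, 4699 to 4832 under anti-PD-1, 5198 to 5242 under LGG and 5305 to 5513 in the combination. Cd28, the costimulatory receptor, differed in shape. Its IgG (641 to 696) and anti-PD-1 (596 to 785) libraries overlap, and it was higher in the combination (413 to 453) than in LGG (244 to 313). The list sum ranged from 21680 to 23250 in IgG, 16470 to 16900 under anti-PD-1, 28930 to 31150 under LGG and 28260 to 29960 in the combination.

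Genes of cytotoxic granules followed. Of 11 natural killer and cytotoxic markers, 5 were called above 0 (Gzma, Gzmb, Prf1, Nkg7 and Eomes), none below, and the median was 0.42. The count of 5 held without LGG replicate 3 and was 1 to 3 with each of the other libraries left out, lowest without IgG replicate 1 or anti-PD-1 replicate 2. Gzmb, which encodes granzyme B (chromosome 14, 56258838 to 56262260), had the joint smallest adjusted p of all genes, 0.000258, with a term of 0.62 ± 0.06. Its libraries read 9980, 9907 and 9417 in IgG, 7405, 7311 and 7543 under anti-PD-1, 11160, 11300 and 10650 under LGG and 12560, 13010 and 13050 in the combination. All 4 groups are apart, with the antibody lowering Gzmb without LGG (-0.40) and raising it with LGG (0.22). Gzma, granzyme A, was lower with the antibody without LGG (-0.53, adjusted p = 0.000217), whereas with LGG its libraries overlap (38470 to 45230 under LGG and 39700 to 41960 in the combination), and its term was 0.45 ± 0.09 (adjusted p = 0.0147). The call of Gzma was lost without IgG replicate 1 or anti-PD-1 replicate 2 (adjusted p = 0.0504 and 0.051). Prf1, perforin, had 0.82 ± 0.18 (adjusted p = 0.0292) and kept its call in 4 of 12 such fits. Gimap4, a GTPase of lymphocytes from a family of similar genes, had 0.55 ± 0.07, and Fam19a3, which encodes a small secreted protein, had 0.61 ± 0.07 (adjusted p = 0.00103 for each).

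B cell markers had the same sign without passing. All 9 tested members were above 0, with a median of 0.40 and a median antibody difference of -0.64 without LGG, and none was called by limma, at adjusted p from 0.0551 (Ighm) upwards. The B cell receptor gene Tnfrsf13c, which is not on that list, was called at 1.28 ± 0.27 (adjusted p = 0.0227), with 46.8 to 57.8 in IgG, 28.1 to 31.4 under anti-PD-1, 34.6 to 42.2 under LGG and 46.2 to 57.3 in the combination, and kept the call in 6 of 12 fits with a library left out. The part that these cells' share of each library has in other terms was not tested.

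**Figure D3:**
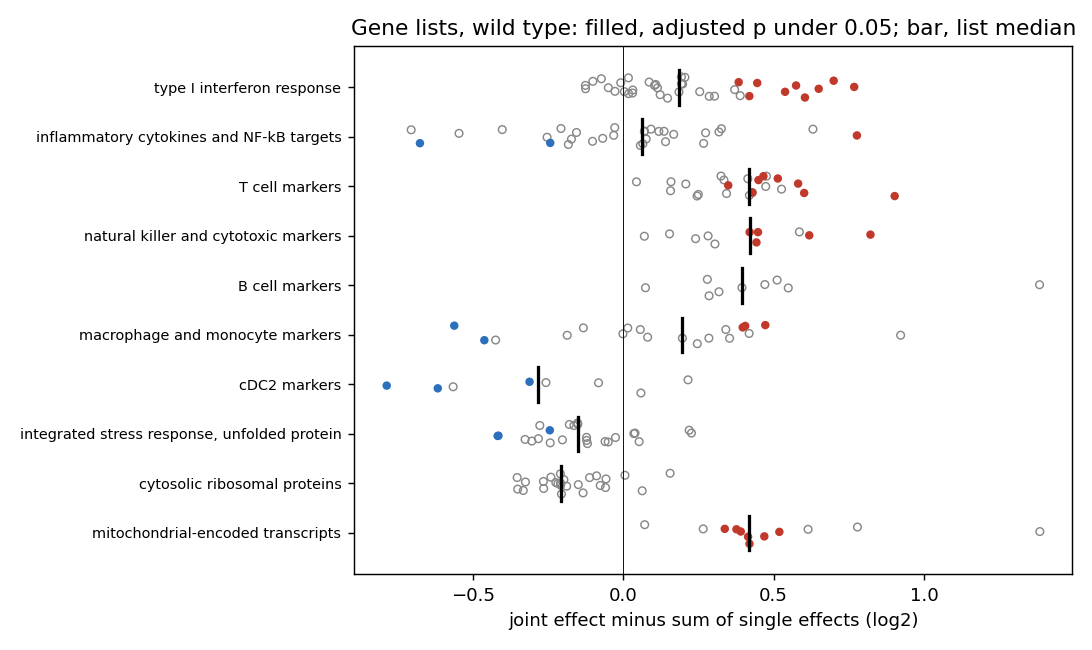
The term (log2) of each tested member of 10 gene lists; filled points were called (red above 0, blue below), open points were not, and a black bar marks the list median. T cell, cytotoxic, B cell and mitochondrial members lie above 0 in every case, while the ribosomal protein, stress response and cDC2 medians lie below 0, at -0.21, -0.15 and -0.28.

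Transcripts of the mitochondrial genome departed upwards. Of 12 tested, 7 were called above 0 and none below, all 12 had a term above 0, and the median was 0.42. The count of 7 was 11 without LGG replicate 3 and 3 to 7 with each of the other libraries left out, lowest without IgG replicate 1 or 3, anti-PD-1 replicate 2 or LGG replicate 2. The gene mt-Co2, a subunit of cytochrome c oxidase, lay at 3605, 3516 and 3597 in IgG, at 2793, 2728 and 2638 under anti-PD-1, at 3266, 3433 and 3710 under LGG and at 3976, 3652 and 3720 in the combination. The anti-PD-1 libraries are the low ones, and LGG and the combination overlap. The term was 0.52 ± 0.07 (adjusted p = 0.00334). mt-Nd1 and mt-Nd2, subunits of complex I, had 0.42 ± 0.08 and 0.47 ± 0.09 (adjusted p = 0.01 and 0.0125). The summed level of all 12 mitochondrial transcripts was 607500 to 620200 in IgG, 518600 to 585700 under anti-PD-1, 590800 to 669400 under LGG and 668100 to 723500 in the combination. Nuclear genes of oxidative phosphorylation did not share this: 0 of 22 were called, and their median was -0.06. Mitochondrial share also varies with RNA quality, whose part in these terms was not tested.

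Of 24 genes of the integrated stress and unfolded protein responses, 3 were called below 0 and none above, and the median was -0.15. Trib3, a pseudokinase induced by amino acid shortage, had -0.42 ± 0.09 (adjusted p = 0.027), Dnajb9, a chaperone of the endoplasmic reticulum, -0.41 ± 0.10 (adjusted p = 0.0414) and Asns, asparagine synthetase, -0.24 ± 0.06 (adjusted p = 0.0409). These 3 calls held in 2 or 3 of 12 fits with a library left out. Without LGG replicate 3 the list had 10 called below 0, and with combination replicate 1 left out as well it had 13. Ero1l, the oxidase that forms disulphide bonds in the endoplasmic reticulum (chromosome 14, 45283087 to 45318771), is not on that list. It was the single call among 25 genes of the hypoxia and glycolysis list. It kept its call in all 12 fits with a library left out. It was at 3703, 3841 and 3726 in IgG, at 4606, 5090 and 5394 under anti-PD-1, at 6618, 6406 and 7054 under LGG and at 6224, 6355 and 6378 in the combination. The antibody raised it without LGG and its libraries lie under those of LGG otherwise, with a term of -0.50 ± 0.08 (adjusted p = 0.00585).

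By their p or size, 4 further genes were named below 0, which are on no list. Hspa9, the mitochondrial chaperone mortalin, was at 19570 ± 199 in IgG, 24700 ± 712 under anti-PD-1, 13740 ± 195 under LGG and 13120 ± 157 in the combination (SD, n = 3), with a term of -0.40 ± 0.06 (adjusted p = 0.00364). Mcfd2, a cargo receptor subunit of the secretory pathway, had -0.45 ± 0.07 (adjusted p = 0.00433). Emp2, a membrane protein gene, read 346, 394 and 368 in IgG, 501, 524 and 546 under anti-PD-1, 505, 478 and 505 under LGG and 412, 475 and 422 in the combination (term -0.69 ± 0.11, adjusted p = 0.00659). Gadd45a, induced by DNA damage, was at 943 ± 67.9 in IgG, 1082 ± 74.1 under anti-PD-1, 1826 ± 120 under LGG and 1337 ± 85.9 in the combination (SD, n = 3; term -0.65 ± 0.10, adjusted p = 0.00652). All 4 kept their calls in each fit with a library left out. Cytosolic ribosomal protein genes had a median of -0.21 with 3 of 25 above 0 and 0 called, and 18 of them were called below 0 when LGG replicate 3 and combination replicate 1 were both left out. Of 26 cell cycle genes, Pcna, the replication clamp, was the single call (-0.27 ± 0.06, adjusted p = 0.0353).

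Scattered members of the remaining lists passed. Of 22 immediate early genes, which also respond to tissue dissociation, 3 were called above 0 and none below, Nr4a3 (0.50 ± 0.11, adjusted p = 0.0277), Egr1 (0.27 ± 0.06, adjusted p = 0.0367) and Nr4a2 (0.60 ± 0.16, adjusted p = 0.0494). Nr4a3 encodes a nuclear receptor that follows antigen receptor signals in T cells, and it was lowered by the antibody without LGG, from 1160 to 1361 in IgG to 856 to 992 under anti-PD-1, while its LGG libraries (3851 to 4618) overlap the combination (4048 to 4529.9). These calls held in 4, 2 and 2 of 12 fits with a library left out. Lss, an enzyme of cholesterol synthesis, was the single call among 21 genes of that pathway (0.51 ± 0.11, adjusted p = 0.0284). Dusp5, a phosphatase that restrains ERK, was called at 0.29 ± 0.07 (adjusted p = 0.0374). When counts are added its departure is -319.9 ± 222 normalised counts, an error that leaves the sign on that scale unresolved.

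The sign of the term ran with the base composition of the transcripts. Genes were split into 5 bins of equal size by GC content. In the bin with the lowest GC content (median 42.7%) the median term was -0.08, with 20 genes called above 0 and 89 below. In the bin with the highest (58.2%) it was 0.08, with 79 above and 9 below. The antibody difference without LGG ran from 0.14 to -0.14 over the same bins and that with LGG from 0.04 to -0.07. Genes called above 0 had a median GC content of 54.6%, those below 0 of 46% and all genes of 50.8%. With a trend of GC content and transcript length removed from each library, 622 genes were called, 221 above 0 and 401 below, which is 35.5% above in place of 51.2%, and 302 of the 428 genes were called again in the same direction. The interferon list then had 11 called above 0, the T cell list 9, the mitochondrial list 9 and the stress response list 10 below and 1 above. Other lists lost calls: the immediate early list went from 3 above 0 to 1 above and 1 below, and the migratory dendritic cell and cell cycle lists lost their single call below 0. Of the 62 called named genes, 7 lost the call. The source of the GC trend was not tested.

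**Figure D4:**
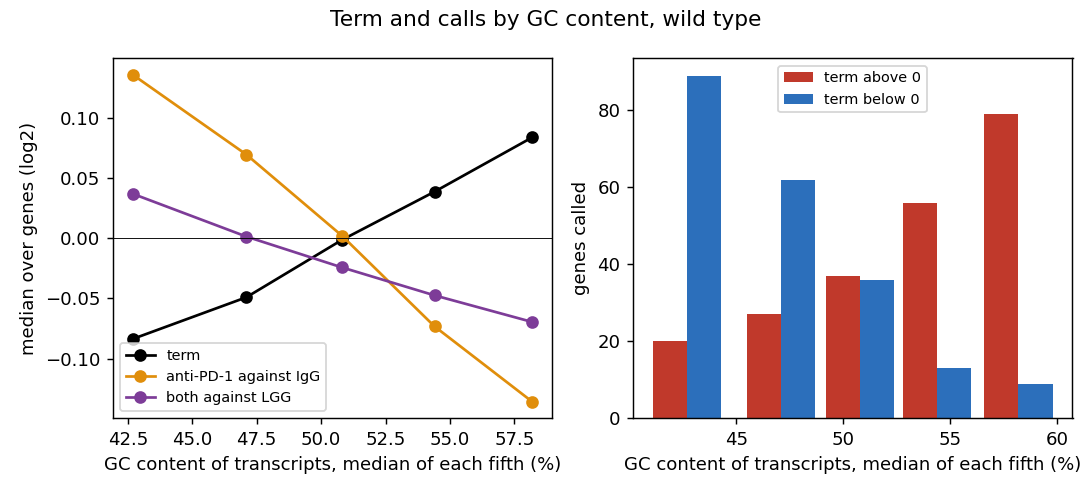
Genes are split into 5 bins by the GC content of their transcripts (horizontal axes, median of each bin in percent). The left panel gives the median log2 term and both antibody differences, with the term going from -0.08 to 0.08, and the right panel gives the number of genes called above and below 0, from 20 and 89 in the lowest bin to 79 and 9 in the highest.

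The largest terms by size belonged to genes of low level, where each value rests on few reads. The term of 2.95 was that of Peg3, an imprinted gene whose highest group mean of 47.7 is below the level set for naming genes, and it is given because it is the largest. Orm3, an acute phase glycoprotein with near-identical relatives, had 2.63 ± 0.57 (adjusted p = 0.0276), from 28.9 to 39.2 in IgG, 5.62 to 17.7 under anti-PD-1, 25.6 to 77.0 under LGG and 81.9 to 144 in the combination. Celf5, an RNA-binding protein gene, had 2.397 ± 0.48 (adjusted p = 0.0179), and Prg2, which encodes eosinophil major basic protein, had 1.63 ± 0.33 (adjusted p = 0.0181). Csgalnact1, an enzyme of chondroitin sulphate synthesis, had 1.49 ± 0.28 (adjusted p = 0.0135). It read 29.4, 38.9 and 36.2 in IgG, 16.2, 12.1 and 8.87 under anti-PD-1, 213, 192 and 214 under LGG and 190.1, 243 and 208 in the combination. The antibody libraries of Csgalnact1 are below IgG without LGG and on both sides of LGG with it. Celf5 and Csgalnact1 kept their calls in all 12 fits with a library left out, Prg2 in all but that without IgG replicate 3 (adjusted p = 0.055) and Orm3 in 4.

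Cfb (complement factor B, 1.51 ± 0.37), Zfp831 (a zinc finger protein gene, 1.46 ± 0.31), Il13 (interleukin 13, 1.37 ± 0.35), Slc46a1 (a folate transporter, 1.22 ± 0.31) and Rtn4r (the Nogo receptor, 1.17 ± 0.31) also had terms above 1. Their adjusted p-values ran from 0.0237 to 0.048, and between 0 and 5 of the 12 fits with a library left out kept the call. Below 0, Depp1, a gene induced by FoxO factors, had -1.68 ± 0.40 (adjusted p = 0.0353). It ranged from 3.27 to 8.13 in IgG, from 7.18 to 8.87 under anti-PD-1, from 131 to 197 under LGG and from 69.3 to 84.3 in the combination. Npl, an enzyme of sialic acid breakdown, had -0.77 ± 0.16 (adjusted p = 0.0205) and Mtrf1, a mitochondrial translation release factor, -0.69 ± 0.17 (adjusted p = 0.0354). These 3 kept the call in 3, 8 and 3 of the 12 fits. With edgeR the calls of Depp1 and Cfb were lost (adjusted p = 0.0746 and 0.0515).

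When counts were added rather than folds multiplied, 214 of the 219 genes above 0 and all 209 below 0 kept the sign of the departure. For Gzmb the combination exceeded the sum by 4184 ± 316 normalised counts, for Rsad2 by 4279 ± 201 and for Nos2 by 9355 ± 534, and for Clec5a it fell short, at -1077 ± 161.

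The same factorial in the 12 libraries labelled Myd88 knockout, with the same 4 treatments, asks whether the departures depend on genotype. In those libraries Myd88 itself was counted at 697 to 1837, beside 1723 to 2232 in wild type, and a count over the whole gene does not show a deleted exon. Among the labelled knockout, 3 libraries stand apart from others of their group, namely LGG replicate 2 and both replicates 2 and 3 of anti-PD-1. Leaving them out keeps a single knockout library under anti-PD-1, so no count is given without them. In a fit of all 24 libraries the term differed between genotypes in 130 of 12749 genes (1.02%). Of the 428 genes called in wild type, 56 were among the 130. The difference includes the wild-type term, so choosing genes by that term favours this overlap, and the count is a description. In the 12 knockout libraries alone the term was called in 11 of 12346 genes, and 421 of the 428 were tested there with 0 called. A knockout term of the same sign was seen in 141 of these 421 genes, fewer than had the opposite sign. Standard errors were larger there for most named genes (Cd3e 0.36 against 0.08), but not for Ccdc80 (0.12 against 0.13) or Slc46a1 (0.24 against 0.31). The lack of calls therefore does not show that the departures are absent.

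Lymphocyte genes and Clec5a were among the 16 genes described above whose term differed. Cd3e had -1.59 in the labelled knockout, a difference of -2.05 ± 0.37 from wild type (adjusted p = 0.00877). It was at a far lower level there, at 39.8 to 54.0 in IgG, 59.9 to 119.5 under anti-PD-1, 244 to 345 under LGG and 169 to 198 in the combination. Gzmb had -0.59, a difference of -1.21 ± 0.17 (adjusted p = 0.000612). Clec5a had 0.29, a difference of 1.14 ± 0.22 (adjusted p = 0.0123). Ptx3 differed by 1.54 ± 0.20 (adjusted p = 0.000271) and Emp2 by 1.43 ± 0.24 (adjusted p = 0.00422). T cell markers summed to 2978 to 11380 in the labelled knockout and to 16470 to 31150 in wild type, so the genotypes differ in lymphocyte transcripts under every treatment. The part of this in the differences was not tested. For Nos2 the knockout term was 0.63 ± 0.16, with a difference of -0.14 ± 0.17 (adjusted p = 0.818), at 1461 to 1757 under LGG and 1522 to 1639 in the combination. The interferon genes Rsad2 (-0.59 ± 0.27, adjusted p = 0.372), Ifit2 (-0.91 ± 0.46, adjusted p = 0.436) and Oas3 (-0.96 ± 0.32, adjusted p = 0.183) showed no difference that passed the test. Their knockout terms were -0.01 ± 0.25, -0.14 ± 0.43 and -0.42 ± 0.29, none of them above 0. With errors of this size, whether the wild-type departure is present in the labelled knockout is not resolved.

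**Figure D5:**
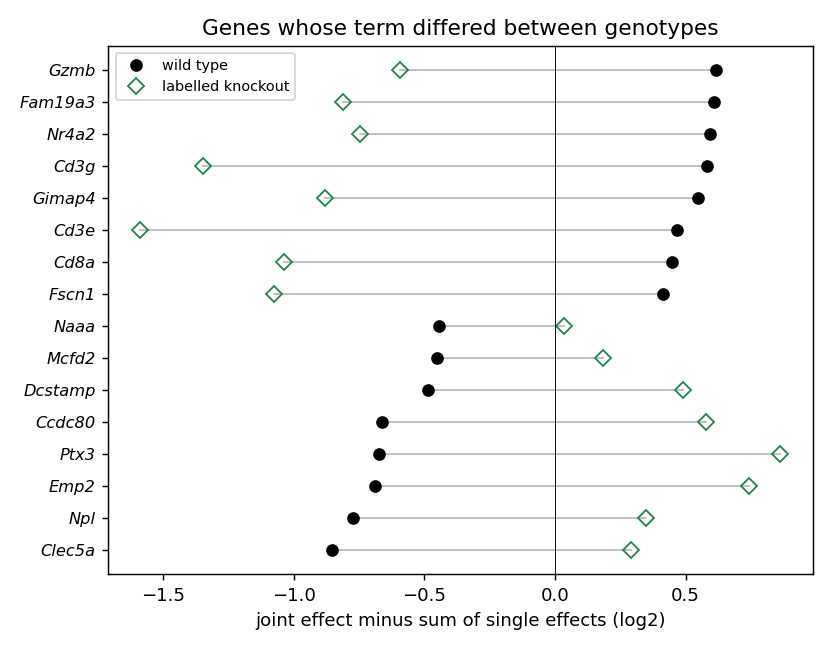
For the 16 named genes whose term differed between genotypes, the term (log2) in wild type (filled circles) and in the libraries labelled knockout (open diamonds). Each gene has opposite signs in the genotypes, from 0.47 against -1.59 for Cd3e to -0.44 against 0.04 for Naaa. None of these knockout terms was called, and some lie near 0, such as Naaa with a standard error of 0.11. Choosing genes by a called term and a called difference favours opposed signs, so the signs are a description.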

How the data were processed

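Messenger RNA was sequenced in 24 libraries, of which the 12 wild-type ones are the subject. The submitters' processing notes name STAR 2.4.0, HTSeq 0.6.1, DESeq2 (version not given in the sources used here) and the mm10 build, without their roles. The deposited values are a normalised signal: within a library they are multiples of 1 step, as read counts divided by a factor per library are. Whether counting used strand is not given, so overlapping genes cannot be told apart. On that step, 100% of values came out as whole reads within 0.001, and these reads served edgeR 4.0.16 and DESeq2 1.42.0 as alternatives. The table lists 12767 genes.

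From it, log2(value + 1) was fitted with limma 3.58.1 in R 4.3.3, with 1 mean per group of 3, a variance trend and robust moderation, keeping the 12660 genes whose wild-type mean reached 10. The comparison with the labelled knockout used all 24 libraries. Tests are two-sided, with Benjamini-Hochberg adjustment at 0.05. On simulated data the test recovered every larger and most of the smaller known changes, which were given to genes of higher level. Even the smaller changes exceeded the median size of the called terms. The simulated counts had the same extra spread in every gene, no library that stood apart and no GC trend in the term. How the test behaves where those are present was not simulated. A log2 difference understates the change of low genes. Gene coordinates, length and GC content come from GENCODE of the same build (12765 genes matched), promoters from RefSeq.

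Named genes are, by size, the 10 called genes with the highest and the 10 with the lowest term, the 5 with the smallest p in each direction (all with a highest group mean of at least 50, leaving out predicted genes and antigen receptor segments), up to 3 called members with the smallest p of each of 33 lists and a fixed set. Members and lists were chosen with earlier results of these data known. Lists are described by counts and medians, without a test. Replicate numbers were checked for pairing: deviations of same-numbered libraries correlated at 0.18 to 0.48 for number 1, -0.32 to 0.28 for 2 and -0.26 to 0.42 for 3, so that not every pair correlated and the numbers were not taken as pairs. Alternatives were a pseudocount of 8, no filter, TMM scaling, array weights, all 24 libraries, a replicate block, both count tools, each library left out and, chosen after seeing the data, removal of a GC and length trend and of libraries that stand apart. Some results are not reported here.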

Additional observations from a re-analysis of the deposited data

Results flagged for a closer look

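For 16 of the named genes, the term differed between wild type and the libraries labelled knockout by the test of the difference itself (limma over 24 libraries, Benjamini-Hochberg over 12749 genes). Differences are knockout minus wild type on the log2 scale, each with its standard error. The terms of T cell and lymphocyte genes were lower in the labelled knockout: that of Cd3e by -2.05 ± 0.37 (adjusted p = 0.00877), Cd3g by -1.93 ± 0.41 (0.0265), Cd8a by -1.49 ± 0.16 (4.62e-05), Gimap4 by -1.43 ± 0.14 (2.73e-05) and Gzmb by -1.21 ± 0.17 (0.000612). Fam19a3 differed by -1.42 ± 0.17 (0.000146), Fscn1 by -1.49 ± 0.31 (0.0234) and Nr4a2 by -1.34 ± 0.25 (0.00976). Myeloid genes had differences above 0, with Clec5a at 1.14 ± 0.22 (0.0123), Dcstamp at 0.98 ± 0.21 (0.0295), Ptx3 at 1.54 ± 0.20 (0.000271) and Naaa at 0.48 ± 0.10 (0.0223). So did Mcfd2 at 0.64 ± 0.12 (0.00976), Emp2 at 1.43 ± 0.24 (0.00422), Ccdc80 at 1.24 ± 0.17 (0.000612) and Npl at 1.12 ± 0.26 (0.0423). All 16 differences kept their sign without the 3 knockout libraries that stand apart (LGG replicate 2 and both replicates 2 and 3 of anti-PD-1). That fit holds a single knockout library under anti-PD-1, so only the sign is given.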

How the results depend on the processing

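The count of genes with a called term, 428, was 2178 with array weights, 2 with all 24 libraries in the fit (where 769 had an unadjusted p below 0.05), 832 with DESeq2 and 2215 without LGG replicate 3 and combination replicate 1, and 106 to 1580 with each library left out in turn. For the combination against LGG the count of 1308 became 5292 with array weights, 8 in the fit of 24 and 4707 without those 2 libraries, with 93 (without LGG replicate 2) to 3837 (without LGG replicate 3) over the leave-one-out fits. For anti-PD-1 against IgG the count of 1133 became 3449, 4 and 2429, with 338 (without anti-PD-1 replicate 3) to 1840.0 (without LGG replicate 3). The count of 130 genes that differed between genotypes was 1645 with array weights and 495 without 3 knockout libraries. The replicate numbers were not taken to pair the libraries (number 1 correlated in every pair, numbers 2 and 3 did not, and 6 of 12 libraries correlated best with their own number). A replicate block gave 708, 2458 and 1844 calls for the term, the combination against LGG and anti-PD-1 against IgG. The share of calls that were higher moved with scaling: in the combination against LGG from 48.9% to 62.6% with TMM scaling, and in anti-PD-1 against IgG from 45.9% to 57.4% with the GC and length trend removed and to 24.3% without anti-PD-1 replicate 3. On the linear scale the departures of Fscn1 and Dusp5 turned negative, at -10040 ± 3830 and -319.9 ± 222 normalised counts (standard errors from the spread within groups). The error of Dusp5 leaves its sign on that scale unresolved. The cause of these moves was not tested. All 428 called genes kept the sign of the term with a pseudocount of 8, no filter, TMM scaling, array weights, the fit of 24, the block, edgeR, DESeq2, the trend removed and each library left out. Depth limits genes of low level, such as Ifnb1.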
